A study of Mus musculus with 6 samples.

Results

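The respiratory chain of the mitochondrion is built from proteins of both genomes of the cell, and its genes were followed here by the genome that encodes them. The members are the rows of the count table whose symbol starts with Ndufa, Ndufb, Ndufc, Ndufs, Ndufv, Sdh, Uqcr, Atp5 or Cox4 to Cox8, together with Cyc1 and the mitochondrially encoded rows COX1 to COX3, CYTB, ND1 to ND6, ND4L, ATP6 and ATP8. These rules took 104 of 13007 rows, of which 91 are nuclear genes and 13 are mitochondrial genes. Among the 91 nuclear genes 77 encode subunits, and the prefixes also took 14 that do not: the assembly factors Ndufaf1 to Ndufaf7 and Sdhaf1 to Sdhaf4, the supercomplex factor Cox7a2l, and Atp5s and Atp5sl. All 104 members passed the filter on low counts.

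The libraries came from mouse bone marrow of strain C57BL/6. AEL, acute erythroid leukemia, stands for GFP-positive leukemic cells that were transduced to overexpress ERG and carry the genotype label Trp53-/-, and NC for wild-type cells sorted after staining with antibodies to CD71 and Ter119, which mark erythroid precursors. Each group had 3 libraries. The tissue label of all 6 libraries, NC included, names cells transformed by mutations of SETBP1 and ASXL1, which does not match the wild-type label of NC, and neither the animals' age nor the promoter that drives ERG is given in the sources used here. The replicates are called biological, without a word on whether each is a different animal, and the p-values therefore reflect only how these samples vary.

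The respiratory chain passes electrons from NADH through complex I, or from succinate through complex II, by way of ubiquinone to complex III, cytochrome c and complex IV, which reduces oxygen. Protons pumped by complexes I, III and IV drive complex V, the ATP synthase. Complex II is wholly nuclear encoded, whereas the other complexes join nuclear subunits, imported from the cytosol, to a few membrane subunits made inside the mitochondrion. Erythroid precursors use mitochondria for heme synthesis as well as for respiration and clear them as they become red cells.

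Library totals ran from 8171676 to 9945330 counts. Levels are given as CPM, the counts scaled to a common library total, scaled by TMM, a factor that corrects for differences in library composition, and fold changes as log2 of AEL over NC, so negative values are lower in AEL. A gene is called where edgeR's quasi-likelihood test, adjusted by Benjamini-Hochberg over all 12427 genes tested, gave an adjusted p under 0.05. Trp53 stood at 1171, 1092 and 976 CPM in the libraries labelled Trp53-/- and at 177, 175 and 162 CPM in NC, which does not check that label because counts summed over a gene cannot tell which exons were read. Erg stood at 790, 556 and 684 CPM in AEL and 4.38, 7.56 and 8.52 in NC. The groups differed in other cell markers too: summed over 11 red cell markers the levels ran from 4105 to 12852 CPM in AEL and from 54730 to 69727 CPM in NC, with 9 of 11 lower. All 10 macrophage markers were lower (3.04 to 39.2 CPM in AEL against 3014 to 3537 in NC, with Marco and Spic at 0 in AEL), as were all 10 neutrophil markers (17.4 to 1032 against 7450 to 8682 CPM) and all 10 B cell markers (2.03 to 2.74 against 237 to 281 CPM). The 3 T and NK cell markers that passed the filter were lower too. Summed over the 4 such markers in the count table, the levels were 0.225 to 0.915 CPM in AEL against 47.1 to 52.7 in NC. Of 4 megakaryocyte markers that passed it 2 were lower and 1 higher, and Gp1bb and Ppbp were at 0 in AEL. The part of these other cells in the results below was not tested, and in bulk samples fewer cells of a type and less RNA per cell cannot be told apart.

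Nuclear subunits of the respiratory chain were lower in AEL, and those of complex IV by the most. Of 77 nuclear subunits 51 were called lower and 0 higher, against 29.0% of all genes tested called lower and 23.9% called higher (52.8% in either direction). Their median log2 fold change was -0.64, against -0.051 over all genes tested. No nuclear subunit was called higher by DESeq2, by limma on log2(CPM + 1) or at an unadjusted p under 0.05 in edgeR with TMM and all 6 libraries, whereas with quantile normalization 4 were called higher (Atp5g1, Atp5g2, Ndufb4 and Atp5l). Of these 4, Ndufb4 and Atp5l averaged only 2.26 and 2.28 CPM over the 6 libraries. With TMM they stood at 0.0073 and -0.71, neither of them called. At an unadjusted p under 0.05, edgeR had 2 higher with library totals alone and 2 without NC replicate 1. In 57 of the 77 all 3 AEL libraries lay below all 3 NC libraries and in 0 they lay above, against 36.1% and 29.9% of all genes tested. The count of calls depended on the controls: 32 nuclear subunits were called lower without NC replicate 1, and 32 without NC replicate 2.

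Of the 13 mitochondrial transcripts COX1, COX2 and COX3 were called lower, ND4L and ND5 were called higher, and 8 were not called, with a median log2 fold change of -0.0027. The 3 called lower are 23.1% of the rows, against 29.0% of all genes tested. The 2 called higher are to be read against 23.9% of all genes tested, and a difference between complexes was not tested. Scaling matters for the direction of this group, since quantile normalization moved COX1 to 0.78 and COX3 to 0.049. There COX1 was called higher (limma adjusted p = 0.00346), and COX2 and COX3 were not called. Scaling by library totals alone raised the median of all genes from -0.051 to 0.14, and quantile normalization raised it to 0.11. Relative to the median of all genes the nuclear subunits stood at -0.59 with TMM and with totals alone and at -0.76 with quantile normalization, and the mitochondrial rows at 0.048, 0.047 and 0.42.

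**Figure D1:**
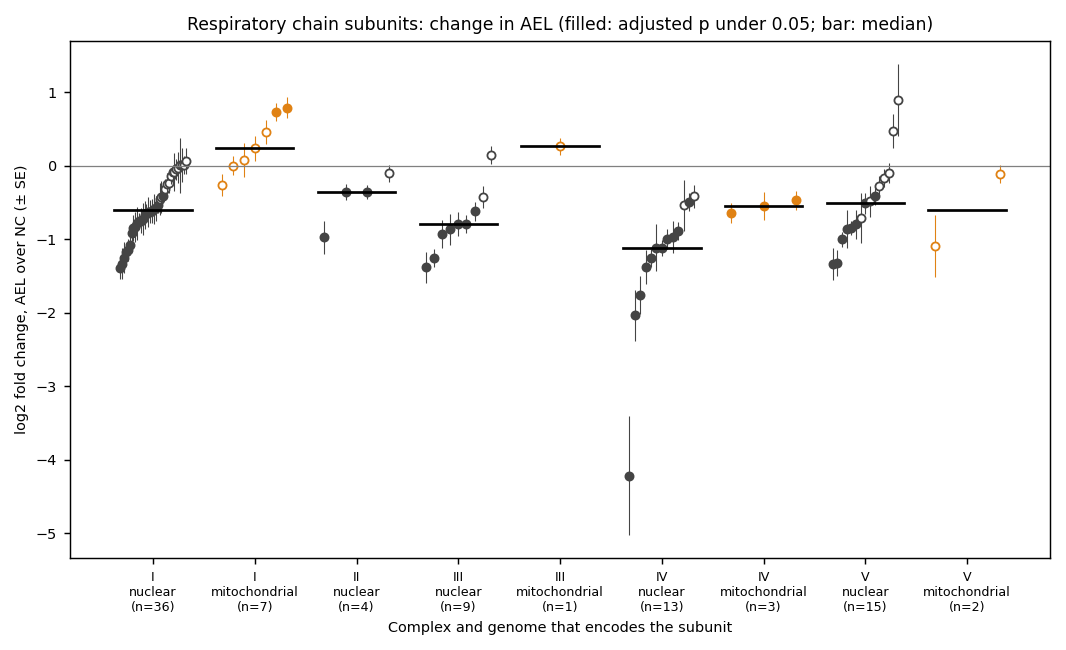
Log2 fold change of AEL over NC (vertical axis) with its SE for each subunit, grouped along the horizontal axis by complex and by the genome that encodes it; filled points passed the edgeR test and bars are medians. Nuclear subunits of complex IV have the lowest median, -1.11, and the 3 mitochondrial subunits of the same complex lie at -0.64 to -0.47. ND4L and ND5 of complex I lie above 0. With quantile normalization COX1 is called higher, and COX2 and COX3 are not called.

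Summed over the 77 nuclear subunits, the level was 10307, 9516 and 10440 CPM in AEL and 15494, 15107 and 13532 in NC, a ratio of means of 0.686. All AEL libraries lay below all NC libraries. Over the 13 mitochondrial rows the sums were 25092, 22017 and 23118 CPM in AEL and 28283, 26358 and 25793 in NC, and here too the groups did not overlap, with a ratio of means of 0.873. As a share of all counts without TMM the mitochondrial rows took 2.34% to 2.61% in AEL and 2.39% to 2.68% in NC, and these ranges overlapped.

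By complex, the nuclear sum of complex IV differed most, at 1271, 1246 and 1246 CPM in AEL against 2883, 2729 and 2438 in NC. The nuclear sums of complex I were 2538, 2416 and 2515 CPM in AEL against 3921, 3772 and 3336 in NC, those of complex II 647, 656 and 670 CPM against 931, 904 and 818 CPM, and those of complex III 1063, 1105 and 1185 CPM against 1871, 1837 and 1638 CPM. Complex V had the smallest relative difference, with 4787, 4092 and 4823 CPM in AEL against 5888, 5864 and 5301 in NC. In each of the 5 complexes the AEL libraries all lay below the NC libraries, although for complex V the shares of all counts without TMM overlapped, at 0.435% to 0.530% in AEL and 0.491% to 0.559% in NC.

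The mitochondrial sums did not follow this order. For complex I the 7 ND rows summed to 7525, 7049 and 8549 CPM in AEL and to 6559, 6502 and 5910 CPM in NC, so every AEL library was higher. For complex IV the 3 COX rows summed to 12911, 10271 and 9460 CPM in AEL and to 16862, 15346 and 15534 CPM in NC, so every AEL library was lower. With 3 libraries a group the exact two-sided permutation test cannot give less than p = 0.1, and it gave p = 0.1 (adjusted p = 0.11 over the 11 sums by complex and genome) for each sum except that of ATP6 and ATP8, whose groups overlapped (p = 0.2).

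**Figure D2:**
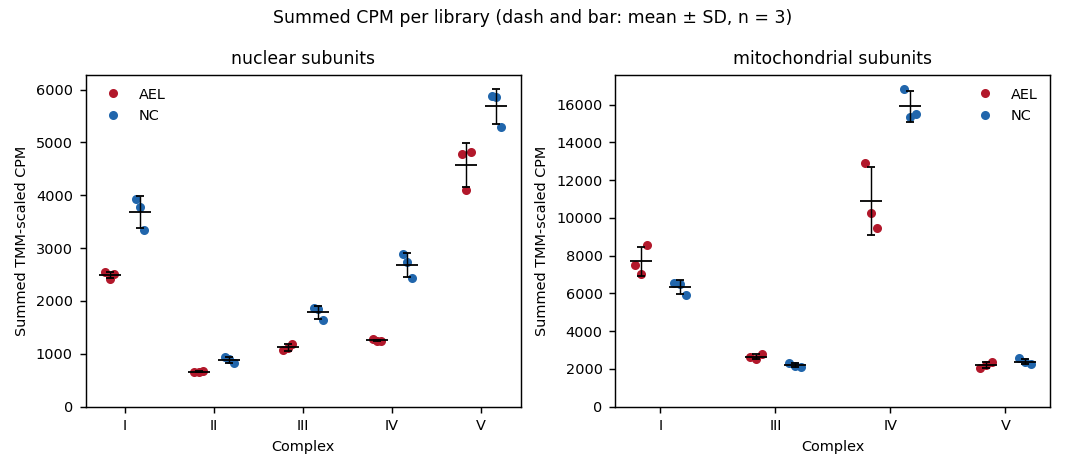
Summed TMM-scaled CPM of each library (points; the horizontal axis gives the complex) with group mean and SD, nuclear subunits on the left and mitochondrial rows on the right, on separate vertical scales. The nuclear sums of AEL lie below those of NC in all 5 complexes, while the mitochondrial sums of AEL lie above NC for complexes I and III, below NC for complex IV, and overlap NC for complex V.

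The ratio of nuclear to mitochondrial transcripts within a library does not depend on the single factor that scales each library. Over the subunits of complexes I, III, IV and V, since complex II has no mitochondrial subunit, it was 0.385, 0.402 and 0.423 in AEL and 0.515, 0.539 and 0.493 in NC. In complex I the ratio was 0.337, 0.343 and 0.294 in AEL and 0.598, 0.580 and 0.564 in NC, and in complex III it was 0.407, 0.439 and 0.428 in AEL and 0.809, 0.850 and 0.781 in NC. In complex IV, where both genomes' transcripts were lower, it was 0.0984, 0.121 and 0.132 in AEL and 0.171, 0.178 and 0.157 in NC. For these 4 ratios all AEL libraries lay below all NC libraries, with an exact two-sided permutation p = 0.1 each (adjusted p = 0.125 over 5 ratios), the smallest this design allows. In complex V the ratio was 2.35, 1.88 and 2.06 in AEL and 2.31, 2.50 and 2.36 in NC, and the groups overlapped (exact permutation p = 0.2).

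Complex I, NADH dehydrogenase, has 36 nuclear subunits in the table, of which 22 were called lower and 0 higher, with a median log2 fold change of -0.60. The counts in this complex are to be read against 29.0% of all genes tested called lower and 23.9% called higher. Of its 7 nuclear core subunits, which carry the flavin and iron-sulfur clusters and the electron path, 5 were lower, and of its 29 accessory subunits, which surround that core, 17 were lower. Ndufb7 (chromosome 8, 83566758 to 83571623, GRCm38.p6), an accessory subunit on the outer face of the membrane arm, stood at 65.3, 49.7 and 66.1 CPM in AEL and 173, 159 and 142 in NC (log2 fold change -1.39, SE 0.15, edgeR adjusted p = 7.65e-04). Every NC value exceeded every AEL value. Ndufb8 and Ndufb2, further accessory subunits of the membrane arm, fell by 1.33 and 1.25, and Ndufa3 by 1.17. Ndufv1, the core subunit that binds NADH and flavin, stood at 165, 172 and 112 CPM in AEL and 288, 268 and 253 in NC (-0.85, SE 0.18, edgeR adjusted p = 0.00735).

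Not all of complex I moved. Ndufs1, the largest iron-sulfur subunit, stood at 191, 180 and 204 CPM in AEL and 227, 214 and 191 in NC. The groups overlapped, and so they did for the accessory subunit Ndufa10, at 161, 149 and 181 CPM in AEL and 174, 165 and 147 in NC. Across the 77 nuclear subunits 13 had a log2 fold change within 0.2 of 0, while 18 lay below -1 and all 18 of these were called lower.

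Complex II, succinate dehydrogenase, also serves the citric acid cycle, and 3 of its 4 subunits were called lower, against 29.0% of all genes tested. Sdhd, a membrane anchor, stood at 69.1, 128 and 97.6 CPM in AEL and 210, 200 and 170 in NC (-0.98, SE 0.23, edgeR adjusted p = 0.0114), with AEL replicate 1 the lowest. Sdha, the flavoprotein, and the other anchor, Sdhc, fell by 0.36 each, and both calls were lost with library totals alone (adjusted p = 0.238 and 0.221), with quantile normalization (0.135 and 0.0501) and in each refit that left out 1 library, except without AEL replicate 3. The call of Sdha was also lost with limma on log2(CPM + 1) (adjusted p = 0.0571). Sdhb, the iron-sulfur subunit, overlapped between the groups, with 129 ± 5.61 CPM in AEL and 139 ± 15.2 in NC (SD, n = 3).

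Complex III passes electrons from ubiquinol to cytochrome c. Of its 9 nuclear subunits, with a median of -0.80, 7 were called lower, against 29.0% of all genes tested. Uqcrh, the hinge protein (chromosome 4, 116066965 to 116075070), stood at 102 ± 2.28 CPM in AEL (SD, n = 3) and at 277, 235 and 219 CPM in NC (-1.26, SE 0.12, edgeR adjusted p = 4.74e-04). The groups lay far apart. Uqcr11, a small subunit, fell by 1.38, Uqcrb, near the quinone site, by 0.93, and Uqcrc1, a core protein on the matrix side, by 0.87. Uqcrc1 stood at 185, 313 and 195 CPM in AEL, with replicate 2 the highest, against 425, 434 and 408 CPM in NC, and its call was lost without AEL replicate 3 (adjusted p = 0.0527) or NC replicate 2 (adjusted p = 0.0503).

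Of the 2 nuclear subunits of complex III that carry electrons 1 was called lower, and a difference between them was not tested. Uqcrfs1, the Rieske iron-sulfur protein, stood at 126, 127 and 149 CPM in AEL and 252, 236 and 210 in NC (-0.79, SE 0.12, edgeR adjusted p = 0.00239). Cyc1, cytochrome c1, did not pass the test (-0.42, edgeR adjusted p = 0.0525), although its AEL values of 210, 157 and 223 CPM all lay below its NC values of 264, 278 and 251 CPM. Uqcrc2, the partner of Uqcrc1, overlapped between the groups (0.15, adjusted p = 0.348).

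Complex IV, cytochrome c oxidase, had 11 of 13 nuclear subunits called lower, counting Ndufa4, which was first assigned to complex I and is now placed here. Their median was -1.11. Over all genes tested 29.0% were called lower. Cox4i1 (chromosome 8, 120668225 to 120674209), the main regulatory subunit, stood at 254, 251 and 285 CPM in AEL and 597, 575 and 539 in NC (-1.11, SE 0.11, edgeR adjusted p = 5.05e-04). Cox6a1 (chromosome 5, 115345652 to 115348958) stood at 257, 217 and 248 CPM in AEL and 621, 576 and 524 in NC (-1.25, SE 0.12, edgeR adjusted p = 5.05e-04). For both genes the lowest NC library was well above the highest AEL library. Cox8a (chromosome 19, 7215158 to 7217616), a small membrane subunit, stood at 128, 107 and 61.9 CPM in AEL and 348, 354 and 301 in NC (-1.76, SE 0.26, edgeR adjusted p = 0.00205), and Cox7a2, another small membrane subunit, fell by 1.38.

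Several complex IV subunits exist as isoform pairs. Cox6a2, the heart and muscle form, was called lower (edgeR adjusted p = 0.00518), with 0, 0.109 and 0.640 CPM in AEL (0, 1 and 7 counts) against 5.54, 4.72 and 5.30 CPM in NC; it overlaps Itgad in the annotation, a leukocyte integrin gene at 0, 0 and 0.0915 CPM in AEL and 140, 153 and 195 in NC, and whether its counts can be told from those of Itgad is not known because how strand was used in counting is not stated. Cox6b2, the testis form, stood at 22.4, 29.2 and 10.8 CPM in AEL and 98.4, 82.0 and 75.2 in NC (-2.04, SE 0.35, edgeR adjusted p = 0.00346). Its ubiquitous partner Cox6b1 fell by 1.0, and Cox6b2 took 17.5%, 23.0% and 8.46% of the counts of the pair in AEL against 29.6%, 27.0% and 29.2% in NC. Cox6c fell by 0.89 and Ndufa4 by 0.50, and the call of Ndufa4 was lost with library totals alone (adjusted p = 0.0905) and without AEL replicate 1 (0.0817), AEL replicate 2 (0.0675) or NC replicate 1 (0.0519).

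Complex V differed within itself. The catalytic head carries Atp5a1 and Atp5b, the alpha and beta subunits, neither of which passed the test. Atp5b stood at 1969, 1628 and 2114 CPM in AEL and 2073, 2146 and 1898 in NC (-0.10, edgeR adjusted p = 0.584), and Atp5a1 at 1375, 1139 and 1323 CPM against 1462, 1481 and 1377 CPM (-0.17, edgeR adjusted p = 0.278). Of the 15 nuclear subunits 8 were called lower, against 29.0% of all genes tested. Atp5e, the epsilon subunit of the head, stood at 91.7, 96.0 and 63.5 CPM in AEL and 220, 217 and 190 in NC (-1.32, SE 0.18, edgeR adjusted p = 0.00147). Atp5k, the e subunit of the membrane part, fell by 1.34, Atp5j2, its f subunit, by 1.0, and Atp5h, of the stalk, by 0.86. The call of Atp5h was lost with library totals alone (adjusted p = 0.0586) and without any single library other than AEL replicate 1 (adjusted p = 0.0586 to 0.110).

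The alpha and beta subunits held most of the complex V counts. Together they took 69.6% ± 1.84 of the nuclear complex V counts in AEL and 61.2% ± 1.02 in NC (SD, n = 3), and the groups did not overlap. Without them the sum was 1443, 1325 and 1386 CPM in AEL and 2353, 2238 and 2027 in NC, a ratio of means of 0.628, against 0.804 with them. Atp5f1, the b subunit of the stalk, fell by 0.51, and its call was lost with library totals alone (adjusted p = 0.101) and without AEL replicate 1, AEL replicate 3, NC replicate 1 or NC replicate 2 (adjusted p = 0.0666 to 0.105).

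The c subunit, the rotor ring of complex V, is encoded by 3 genes whose mature protein is the same, so the last 120 coding bases, which lie within it, differ mainly at synonymous sites. Capitals mark the 31 positions at which the 3 genes differ (stop codon included; GENCODE M21 transcripts).
Atp5g1: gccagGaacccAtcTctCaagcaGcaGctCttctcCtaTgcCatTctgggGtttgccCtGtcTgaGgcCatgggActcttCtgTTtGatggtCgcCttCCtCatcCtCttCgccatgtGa
Atp5g2: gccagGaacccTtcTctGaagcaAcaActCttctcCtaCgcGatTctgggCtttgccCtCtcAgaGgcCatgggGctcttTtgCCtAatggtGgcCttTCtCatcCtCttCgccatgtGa
Atp5g3: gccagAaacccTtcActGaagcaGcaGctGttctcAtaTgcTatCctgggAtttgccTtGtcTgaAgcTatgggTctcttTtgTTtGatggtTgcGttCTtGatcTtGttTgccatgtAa
Of the 3 genes only Atp5g3 was called lower. Atp5g3 stood at 195, 147 and 250.4 CPM in AEL and 351, 362 and 315 in NC (-0.80, SE 0.20, edgeR adjusted p = 0.0143). The call of Atp5g3 was lost without AEL replicate 1 (adjusted p = 0.056), NC replicate 1 (0.0528) or NC replicate 2 (0.0546). Atp5g1 stood at 25.9, 26.9 and 22.6 CPM in AEL and 23.3, 16.7 and 14.4 in NC (0.47, edgeR adjusted p = 0.133), and Atp5g2 at 5.74, 7.81 and 5.21 CPM against 5.80, 1.89 and 2.42 CPM (0.89, edgeR adjusted p = 0.163), with both pairs of groups overlapping. As a share of the counts of the 3 genes Atp5g1 took 11.4%, 14.8% and 8.12% in AEL and 6.13%, 4.38% and 4.34% in NC, so every AEL library was higher, and Atp5g3 took 80.9% to 90.0% in AEL and 92.3% to 95.1% in NC. Atp5g1 and Atp5g2 each have near-identical transcripts elsewhere in the annotation, so their counts are uncertain.

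The 13 mitochondrial rows are read from 1 circular genome whose transcripts are cut from long precursors. Per kilobase of gene length, COX1 (mitochondrial genome, 5328 to 6872) was the highest, at 6360, 4728 and 4224 CPM per kb in AEL and 7762, 7208 and 7368 CPM per kb in NC. COX1 fell by 0.54 (SE 0.19, edgeR adjusted p = 0.0461), COX2 by 0.64 (SE 0.13, adjusted p = 0.00751) and COX3 by 0.47 (SE 0.12, adjusted p = 0.017), all 3 being catalytic or core subunits of complex IV. The call of COX1 was lost with library totals alone (adjusted p = 0.119) and in each refit without 1 library except AEL replicate 1 (adjusted p = 0.089 to 0.114). That of COX3 was lost with library totals alone (adjusted p = 0.105) and without AEL replicate 1 or 2 or NC replicate 1 (adjusted p = 0.0559 to 0.0824). With quantile normalization none of the 3 was called lower. COX1 (0.78) was called higher (limma adjusted p = 0.00346). COX2 (-0.14, limma adjusted p = 0.417) and COX3 (0.049, limma adjusted p = 0.784) were not called. COX1 took 39.2%, 33.2% and 28.2% of the counts of the 13 rows in AEL and 42.4%, 42.3% and 44.1% in NC.

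Of the 7 complex I transcripts ND5 and ND4L were called higher and 5 were not called, a count near the 23.9% of all genes tested called higher. ND5 (11742 to 13565), a proton-pumping subunit, stood at 1423, 1700 and 1653 CPM in AEL and 933, 981 and 958 in NC (0.73, SE 0.12, edgeR adjusted p = 0.00285). ND4L (9877 to 10173) stood at 288, 219 and 214 CPM in AEL and 131, 141 and 146 in NC (0.79, SE 0.14, edgeR adjusted p = 0.00437). Both were higher in all 3 AEL libraries and both were called under every alternative run. ND2 stood at 1273, 1088 and 1576 CPM in AEL and 979, 1013 and 874 in NC, above NC in every library but not past the test (0.46, edgeR adjusted p = 0.0515).

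The other rows did not pass the test. ND1 stood at 2337, 2103 and 2990 CPM in AEL against 2229, 2194 and 1884 in NC (0.24), ND3 at 122, 159 and 220 CPM against 184, 158 and 134 CPM (0.075), ND4 at 1669, 1313 and 1435 CPM against 1485, 1461 and 1479 CPM (-0.0027), and ND6 at 414, 467 and 462 CPM against 618, 555 and 435 CPM (-0.26). These 4 overlapped between the groups. CYTB, cytochrome b of complex III, stood at 2615, 2516 and 2770 CPM in AEL and 2313, 2160 and 2098 in NC, higher in every AEL library (0.27, edgeR adjusted p = 0.0974).

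ATP8 and ATP6 overlap on the genome and share 43 coding bases (chrM:7927-7969, GRCm38.p6, plus strand), shown here because a read within them cannot be given to either gene.
ATP8 and ATP6: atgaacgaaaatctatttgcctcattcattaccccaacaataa
ATP6, subunit a of complex V, stood at 2017, 2170 and 2331 CPM in AEL and 2525, 2313 and 2226 in NC (-0.12), and ATP8 at 22.5, 10.6 and 7.77 CPM against 24.6, 36.9 and 25.8 CPM (-1.10, SE 0.42, edgeR adjusted p = 0.0635). The groups overlapped for ATP6 and did not for ATP8. ND4L and ND4 share 7 bases in the same way, and the ratio of ND4L to ND4 was 0.173, 0.167 and 0.149 in AEL and 0.0884, 0.0962 and 0.0985 in NC. In all, 8 of the 13 rows have a near-identical transcript elsewhere in the annotation.

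**Figure D3:**
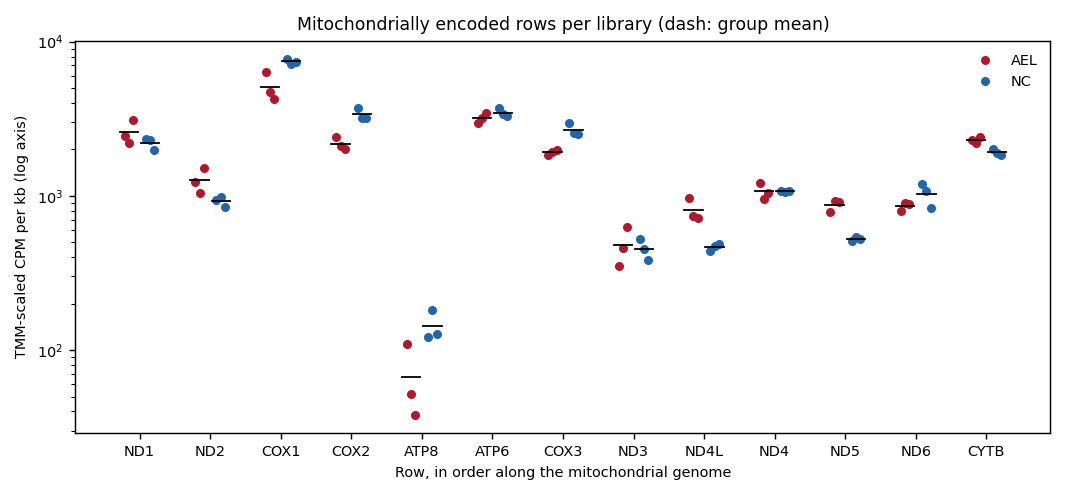
TMM-scaled CPM per kilobase (log vertical axis) of the 13 mitochondrially encoded rows in their order along the mitochondrial genome, 1 point per library, with group means as dashes. The COX rows of AEL lie below NC, the ND4L and ND5 rows lie above NC, and ND4 does not separate. With quantile normalization COX1 is called higher, and COX2 and COX3 are not called.

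Ratios between mitochondrial rows need no scaling between libraries. The ND rows summed to 0.583, 0.686 and 0.904 of the COX rows in AEL and to 0.389, 0.424 and 0.380 in NC, so all 3 AEL libraries were higher. ND5 over COX2 was 0.867, 1.17 and 1.21 in AEL and 0.365, 0.446 and 0.437 in NC. These pairs were chosen after their values were seen, and the ratios are given as descriptions.

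The members that are not subunits had 1 called lower and 3 called higher of 14, against 29.0% of all genes tested called lower and 23.9% called higher. The count called higher is near that share. Cox7a2l, which joins complexes into supercomplexes, fell by 0.99, from 162, 144 and 134 CPM in NC to 53.7, 88.7 and 78.2 CPM in AEL. Ndufaf4, a complex I assembly factor (chromosome 4, 24898083 to 24905001), rose by 1.76 (SE 0.36, edgeR adjusted p = 0.00637), with 51.4, 74.3 and 131 CPM in AEL and 23.1, 30.8 and 21.8 in NC. Ndufaf6, another, stood at 15.9, 16.0 and 26.5 CPM in AEL and 8.25, 7.91 and 6.45 in NC (1.37, edgeR adjusted p = 0.00842; 0.0507 without NC replicate 3). Atp5sl, a factor for assembly of the membrane arm of complex I, stood at 17.7, 27.5 and 19.4 CPM against 14.6, 13.1 and 12.6 CPM (0.68) and lay at the threshold (edgeR adjusted p = 0.04996; 0.0519 with no filter and 0.0642 to 0.176 without AEL replicate 2 or any NC library). Of the 11 Ndufaf and Sdhaf factors 2 were called higher and 0 lower in edgeR. None was called lower in DESeq2, nor lower at an unadjusted p under 0.05 in edgeR. Sdhaf4 was lower at an unadjusted p under 0.05 in DESeq2, and limma on log2(CPM + 1) called it lower. The same shares of all genes tested apply to these factors, and the count higher is near its share.

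The wider pathway was described with lists of assembly, transcription and membrane factors. Of 120 such genes that are not members 19 were called lower and 39 higher, with a median of 0.23, against 29.0% lower, 23.9% higher and a median of -0.051 over all genes tested. Among 18 genes for processing and stability of mitochondrial RNA 11 were called higher in edgeR, with a median of 0.74. None of the 18 was called lower in edgeR, DESeq2 or limma on log2(CPM + 1), and 1 (Slirp) was lower at an unadjusted p under 0.05 in each. Fastkd1, an RNA-binding protein of the mitochondrion, stood at 27.9 CPM in AEL and 5.94 in NC on average (2.23), and Elac2, which cuts the precursors at tRNAs, at 115 and 47.8 CPM (1.26). Fastkd2 (1.20), needed for the mitochondrial ribosome, and Mtpap (0.92), the mitochondrial poly(A) polymerase, were also higher.

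The counts in the other lists are to be read against the same 23.9% higher and 29.0% lower of all genes tested, which several are near, and no list was tested against other genes. Of 15 genes of mitochondrial DNA upkeep and transcription 6 were higher and 2 lower. Top1mt, the mitochondrial topoisomerase, had a log2 fold change of 1.93, and the transcription factors Tfb2m and Tefm had 1.47 and 1.28, while Tk2, the mitochondrial thymidine kinase, fell by 1.10. Among the outer membrane proteins used as a gauge of mitochondrial mass 6 of 10 were higher and 1 lower, led by Mfn1 (0.93) and Tomm70a (0.78). The 10 transcription factors and coactivators of respiratory genes had 3 higher and 1 lower, with Esrra at -0.93, Sp1 at 0.82, Pprc1 at 0.75 and Yy1 at 0.61.

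Assembly factors of the single complexes were mixed. For complex IV 8 of 22 were lower and 4 higher, with Cmc2 at -1.55 and Cox20 at -1.38, and with Cox10, which makes heme for the enzyme, at 1.43 and Sco1, a copper chaperone, at 1.33. For complex III 4 of 7 were higher, Uqcc1 the most (1.15), followed by Ttc19 (1.04) and Bcs1l (0.91), and Uqcc2 was lower (-0.92). For complex I 1 of 8 was lower (Foxred1, -0.89) and 1 higher (Acad9, 0.66), and for complex II 0 of 5 were called by edgeR, also at an unadjusted p under 0.05, 4 of which are members. For complex V 2 of 4 were lower, the inhibitor Atpif1 (-0.65) and the small subunit Usmg5 (-1.81). Of 16 electron carriers and feeding dehydrogenases 2 were lower and 2 higher, with Sqrdl at -3.52, Etfa at -1.04, Gpd2 at 1.49 and Dhodh at 1.29. Of 9 insertion and inner membrane genes 2 were higher (Opa1, 0.98, and Afg3l2, 0.42) and 1 lower (Phb2, -0.57).

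Log2 fold changes were lower among subunits with short coding sequences, a pattern seen after the values were known. Coding length is the median over a gene's protein-coding transcripts in the GENCODE M21 basic annotation. It can therefore differ from the length of any single transcript (163.5 bases for Atp5k), and some genes could change class by another measure. Of 22 nuclear subunits with at most 300 coding bases 19 were lower, with a median of -1.0, against a median of -0.48 over the 288 other genes of that length, of which 41.7% were called lower. Of 22 with 300 to 450 bases 11 were lower (median -0.69), near the 43.6% of other genes called lower (median -0.52). Of 22 with 450 to 900 bases 18 were lower (median -0.63), against 35.6% of other genes (median -0.22). Of 7 with 900 to 1500 bases 2 were lower (median -0.25), and of 4 longer ones 1 was lower (median -0.15), shares near the 28.8% and 24.0% of other genes called lower (medians -0.065 and 0.16). In each class the median of the nuclear subunits lay below that of the other genes. Spearman's rho between coding length and log2 fold change was 0.44 over 77 nuclear subunits and 0.17 over 11028 other genes, a description across genes that share the same 6 libraries.

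**Figure D4:**
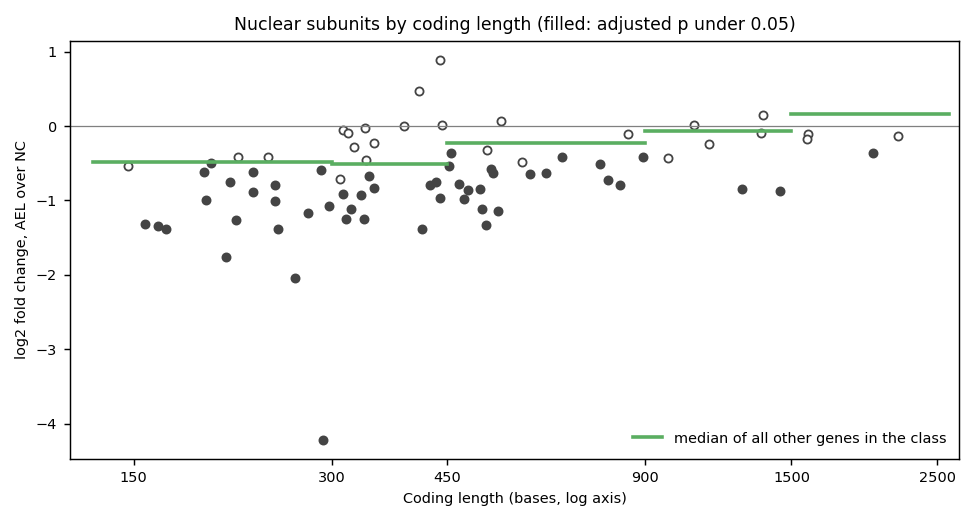
Log2 fold change of each nuclear subunit (vertical axis) against its coding length in bases, the median over its protein-coding transcripts (log horizontal axis). Filled points passed the edgeR test, and green lines give the median of all other genes in each length class. Points with at most 300 bases have a median of -1.0 and those above 1500 bases a median of -0.15.

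Medians over the genes of some chromosomes also differed between the AEL libraries. Relative to the NC mean, the other genes of chromosome 9 had medians of -0.67, 0.017 and -0.72 in AEL replicates 1 to 3, and the 5 members there had -1.27, -0.53 and -1.11. On chromosome 19 the other genes had 0.060, -0.015 and -0.87 and its 5 members -0.71, -0.65 and -1.54, and on chromosome 3 the other genes had 0.13, 0.58 and 0.25. The genes of chromosome 14, which holds no member, had -0.024, -0.68 and -0.71. Whether whole chromosomes or parts of them differed was not tested. Sdhd, Cox5a, Cox7a2 and Uqcrc1 on chromosome 9 were highest, among the AEL libraries, in replicate 2, and Cox8a, Ndufb8, Ndufv1 and Ndufs8 on chromosome 19 lowest in replicate 3. Without chromosomes 3, 9, 14 and 19, an alternative chosen after seeing the data, 41 of the 65 nuclear subunits left were called lower and 0 higher, with a median of -0.62. Over all genes tested 29.0% were called lower and 23.9% higher.

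**Figure D5:**
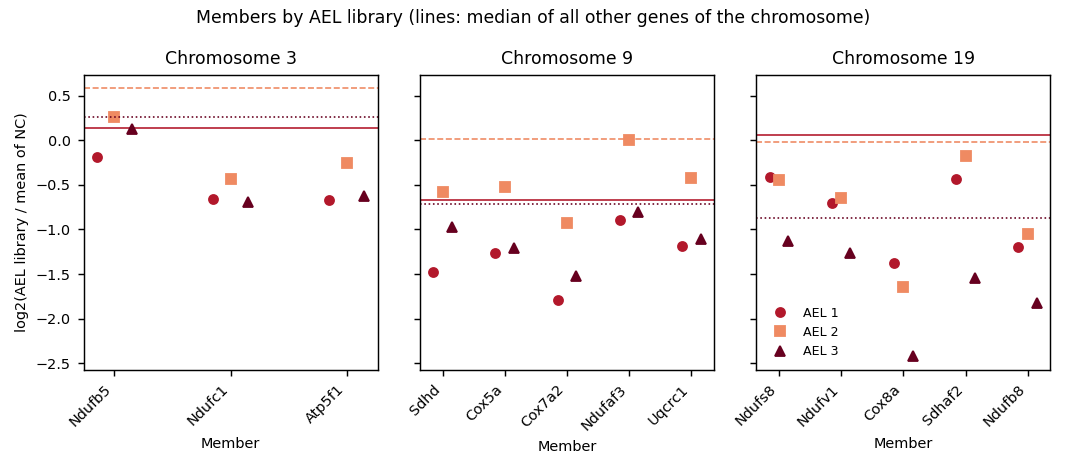
Log2 ratio of each AEL library to the NC mean (vertical axis) for the members on chromosomes 3, 9 and 19 at a mean of 10 CPM or more. Lines give the median of all other genes of the chromosome at that level in the same library. On chromosome 9 the lines of replicates 1 and 3 lie at -0.67 and -0.72, and on chromosome 19 the line of replicate 3 lies at -0.87.

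The promoters of respiratory genes are known for binding sites of NRF1, of the ETS factor GABP and of YY1. The 3 windows below are shown because they hold the same NRF1 letters, in capitals, while their genes moved in opposite directions: Cox6a1 and Atp5k fell and Ndufaf4 rose. The windows are the 170 bases before the start (RefSeq, GRCm38.p6): chr5:115348959-115349128 on the minus strand, chr5:108434400-108434569 on the minus strand and chr4:24897913-24898082 on the plus strand. A further run of capitals in Cox6a1 marks the ETS letters on the opposite strand.
Cox6a1: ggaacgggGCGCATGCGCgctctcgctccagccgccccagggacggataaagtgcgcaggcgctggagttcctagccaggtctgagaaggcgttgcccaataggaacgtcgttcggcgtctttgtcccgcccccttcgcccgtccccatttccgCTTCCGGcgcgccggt
Atp5k: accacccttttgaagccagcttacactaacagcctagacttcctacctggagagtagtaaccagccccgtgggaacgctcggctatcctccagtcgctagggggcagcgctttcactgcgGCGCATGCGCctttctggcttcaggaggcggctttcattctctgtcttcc
Ndufaf4: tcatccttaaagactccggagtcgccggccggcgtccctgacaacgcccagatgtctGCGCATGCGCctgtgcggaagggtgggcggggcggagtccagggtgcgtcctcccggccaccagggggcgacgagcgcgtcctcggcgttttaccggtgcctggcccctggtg
Promoters from 250 bases before to 50 bases after the start were matched for 74 of the 91 nuclear members and searched on both strands. The NRF1 motif, those letters shared in capitals by the 3 windows, was in 7 of 74 (9.46%), against 2.29% of 9720 genes of the table with a promoter and 1.07% of all 27025. The ETS letters CCGGAAG were in 20 (27.0%, against 20.2% and 9.93%) and the YY1 letters AAGATGGCG in 7 (9.46%, against 3.69% and 1.64%). Of the 7 members with the NRF1 letters 3 were lower and 1 higher, of the 20 with the ETS letters 12 were lower and 0 higher, and of the 7 with the YY1 letters 5 were lower and 0 higher. Without each motif 40 of 67, 31 of 54 and 38 of 67 were lower, and a match is a description of letters only. Over all genes tested 29.0% were called lower and 23.9% higher, and a difference by motif was not tested. Nrf1 itself did not pass the test (-0.17), nor did Gabpa (0.33).

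Of the 77 nuclear subunits 24 have a near-identical transcript elsewhere in the annotation or overlap another gene of the table, so their counts may be shared. With these 24 left out, a choice made after seeing the data, 37 of the remaining nuclear subunits were called lower, with a median of -0.63. Over all genes tested 29.0% were called lower.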

How the data were processed

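Messenger RNA was captured with poly-T beads from sorted marrow cells of 3 AEL and 3 NC samples and copied with random hexamers, per the labels' protocols. The authors deposited whole-number counts per gene under a name that says CPM, with library totals of 8171676 to 9945330. Per the submitters' processing notes, edgeR 3.32.1 and mm10 were used, in roles not stated; aligner, counter and strand setting were not given in the sources used here. Pairs of libraries differed beyond sampling noise (chi-square over its degrees of freedom 4.72 to 8.61 for NC pairs and 43.9 to 55.2 for AEL pairs).

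The 12427 of 13007 genes that reached 1 CPM in 3 or more libraries were fitted with edgeR 4.0.16 (R 4.3.3; TMM factors 0.925 to 1.10, group as the only term, quasi-likelihood test) and adjusted by Benjamini-Hochberg over all genes at 0.05. Each SE was derived from the fold change and its F statistic. Sums and ratios used TMM-scaled CPM and exact permutation tests. The fit was tested on simulated data. Alternatives were limma 3.58.1, DESeq2 1.42.0, other scalings, filters and pseudocounts, the replicate number as a block, and leaving out each library. Members were matched to RefSeq (101 by symbol, 3 by synonym); near-identical transcripts are those with at least 95% identity over at least 50% of the length in GENCODE M21. All mitochondrial rows were named, and of the nuclear members of each complex the 4 with the highest mean CPM and the 4 called with the largest change, isoform families, and up to 4 called genes of each other list; Cox5a and Ndufs8 were named after their values were seen, and 1 member that this rule names is not reported here. The members and lists were chosen with earlier results of these data known.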

Additional observations from a re-analysis of the deposited data

How the results depend on the processing

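Of 60 members called, 33 were called in the same direction under every alternative: 29 nuclear subunits, ND4L, ND5, Cox7a2l and Ndufaf4. Nuclear subunits called lower numbered 51 with TMM, 35 under library totals, 46 under quantile normalization, 52 in DESeq2, and 32 to 45 when 1 library was left out; 4 were called higher under quantile normalization. Mitochondrial rows called numbered 5 with TMM, 8 under quantile normalization (1 lower, 7 higher), 8 in DESeq2 (4 higher) and 3 to 6 when 1 library was left out (1 to 3 lower); under library totals 1 was lower and 4 were higher. Their median was 0.18 under library totals and 0.53 under quantile normalization. The same-numbered AEL and NC libraries share only a number, since the correlations of their deviations were 0.082, -0.017 and -0.031 and AEL replicates 2 and 3 correlated best with another number; with the replicate block 43 nuclear subunits were lower, and 3 mitochondrial rows were called, 1 of them lower.

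Under library totals, the log2 ratio of AEL to NC of the nuclear sums was -0.38 for complex I, -0.24 for II, -0.48 for III, -0.91 for IV, -0.13 for V and -0.36 for all, and that of the mitochondrial sums 0.47 for I, 0.45 for III, -0.37 for IV, 0.065 for V and -0.0094 for all. With geometric means over members in place of sums, the nuclear values were -0.77 for III, -1.25 for IV, -0.50 for V and -0.69 for all, the mitochondrial values -0.63 for V and -0.058 for all, and the nuclear to mitochondrial ratios -0.64 for complexes I, III, IV and V together, -1.04 for III and 0.16 for V.

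Signs turned for 10 of the members that the naming rule took. Atp5l, named outside that rule, turned from -0.71 with TMM to a call higher under quantile normalization. Under library totals ATP6 was at 0.073, Atp5a1 0.017, Atp5b 0.090, ND4 0.18, Ndufs1 0.050 and Sdhb 0.080. Under quantile normalization ATP6 was at 0.39, Atp5a1 0.37, Atp5b 0.43, COX1 0.78, COX3 0.049 and ND4 0.53. Of these, COX1 and ND4 were called higher (limma adjusted p = 0.00346 and 0.0146). Ndufa10 was at -0.0079 with a filter at 10 CPM. When 1 library was left out, ATP6 ran from -0.19 to 0.035, Atp5b from -0.19 to 0.073, ND3 from -0.12 to 0.36, ND4 from -0.050 to 0.14 and Ndufa10 from -0.087 to 0.15. The cause was not tested. With 3 libraries a group, no sum or ratio could reach an exact p under 0.1.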
